A study of Mus musculus with 3 samples.

Results

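The detected solute carrier genes are 141 of the 379 mouse genes whose symbols have the Slc family form (Slc, a family number and a letter). They were chosen by their level: a gene entered when it reached 1 TPM or more in each of 3 libraries. TPM, the transcript unit of the gene tables, divides reads by effective transcript length and scales each library to a fixed sum, so it can be compared between genes. A list of 13 genes was left out by rule, 9 of which reach the same level, so that 150 genes pass it in all. The whole gene table holds 55536 annotated genes. Since levels selected the members, the levels below are a description. The tests near the end ask how far libraries or quantifications differ; they use the same values as the rule and support nothing about the choice of members.

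The libraries hold polyadenylated RNA of macrophages that were grown from C57BL/6J bone marrow. Every library had the same exposure: 12 h in lipid A at 100 ng/ml, then 12 h after it was washed out, then 480 min in lipid A at 100 ng/ml. Lipid A is the part of bacterial lipopolysaccharide that Toll-like receptor 4 recognises, and the treatment field names lipoprotein A where the written description names lipid A. The 3 libraries (replicates 1, 2 and 3) form 1 group with 1 donor record. The labels do not say that they came from separate animals, so the spread between them may be technical. P-values of the tests between libraries concern only that spread. The comparison of quantifications instead used the spread of differences taken within each library, pooled over all genes tested. Without an untreated library in the analysis, no value below is an effect of lipid A.

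Solute carriers are membrane proteins that move nutrients, ions, metals, nucleotides and metabolites across the plasma membrane and the membranes of organelles. In macrophages they are known for feeding amino acids to growth signalling at the lysosome, for emptying phagolysosomes of digested material, and for moving metals toward or away from ingested microbes. The mitochondrial branch, family Slc25, exchanges ADP for ATP and passes phosphate, glutamate, citrate and other metabolites across the inner membrane.

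The RNA had the markers of its label. All 8 macrophage markers were detected, with a summed level of 17560 to 19690 TPM. The summed level of each of the 8 lists for other cell types (4 genes each) was at most 1.06 TPM in any library, and all 4 erythroid markers were at 0. In bulk RNA, fewer cells of a type and less RNA per cell cannot be told apart. Depth was 24596382, 54016971 and 43127749 expected counts in replicates 1, 2 and 3. Replicate 2 stood apart: mitochondrially encoded mRNA took 6.86% of its counts, against 1.06% in replicate 1 and 1.13% in replicate 3. Values of each library are therefore given one by one, and class means also without replicate 2.

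The members spread over 39 of 49 annotated families. All 141 are annotated as protein-coding. By name, 138 are transporters. The other 3 carry a name of the same form but are not transporters: Slc9a3r1 encodes a scaffold protein that binds sodium-proton exchangers, Slc4a1ap encodes a protein that binds the anion exchanger, and Slc7a6os lies opposite Slc7a6. They are counted as members, in the class of the family they are named for. In 8 families no gene reached the level: Slc1 (7 genes, glutamate and neutral amino acids), Slc5 (13 genes, sodium-coupled sugars and vitamins), Slc14 (2 genes, urea), Slc18 (4 genes, vesicular amines), Slc32 (1 gene, vesicular inhibitory transmitters), Slc34 (3 genes, phosphate), Slc47 (2 genes, organic cations) and Slc51 (2 genes, bile acids and steroids).

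The members together held 6261.0 TPM in replicate 1, 5251.6 in replicate 2 and 6737.7 in replicate 3, a mean of 6083.4 ± 758.8 (SD, n = 3). That is 0.626%, 0.525% and 0.674% of all TPM. Replicate 2 was the lowest of the 3 on this scale, before any rescaling to nuclear protein-coding genes. The median member had a mean of 15.8 TPM (quartiles 7.05 and 35.2), against 18.01 over the 9426 nuclear protein-coding genes that reach the same level. Levels were uneven: 96 members averaged 10 TPM or more, 29 averaged 50 or more and 10 averaged 100 or more, while 24 averaged less than 5. The single highest member held 15.7% of the members' summed TPM, the 5 highest 39.5% and the 12 highest 54.5%.

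**Figure D1:**
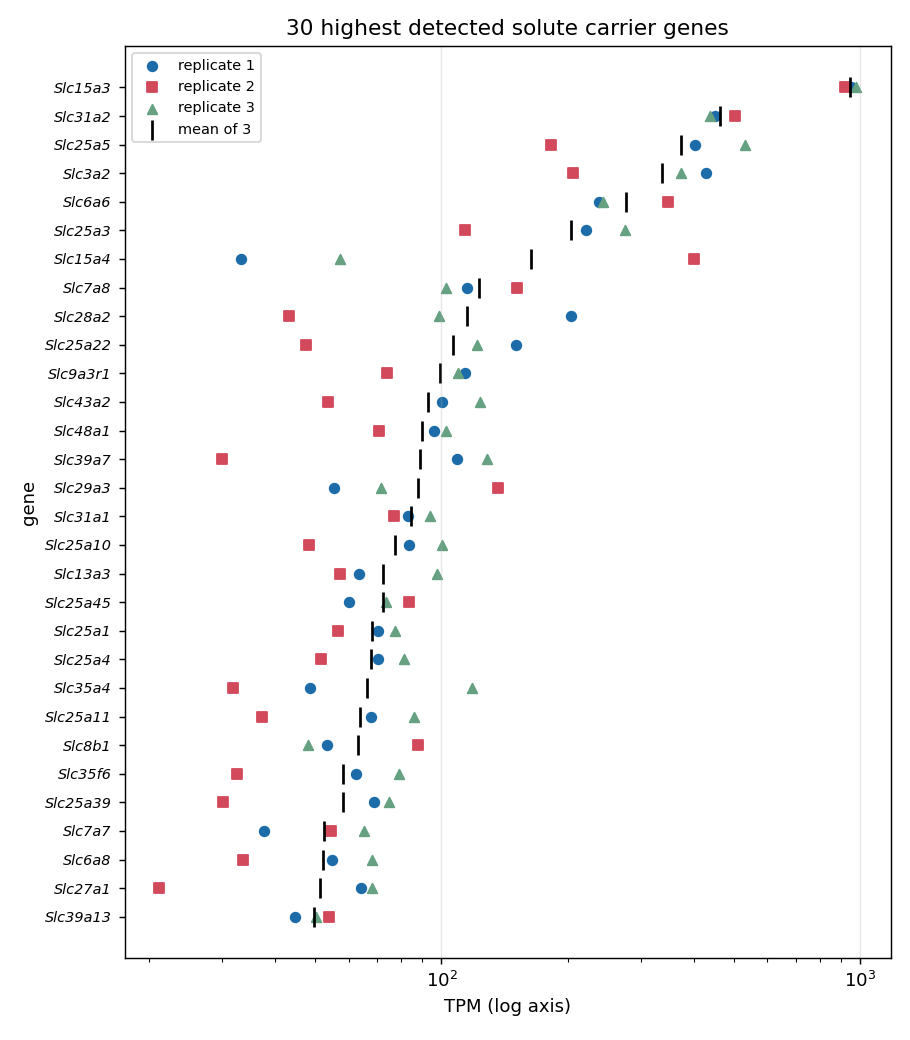
TPM of the 30 members with the highest mean, on a log axis, with 1 point for each library and a bar at the mean of 3. In the first quantification, shown here, Slc15a3 and Slc31a2 lead with little spread between libraries, while Slc15a4 ran from 33.2 to 401 TPM.

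Transporters of amino acids and peptides were the most abundant class, with 20 members of 71 annotated genes. Their summed level was 2126, 2293 and 2163 TPM in replicates 1, 2 and 3 (mean 2194 ± 87.6, SD, n = 3; 2145 without replicate 2). Replicate 2 was highest through Slc15a4 alone, whose level is taken apart below: without that gene the sums were 2092, 1892 and 2106 TPM, and replicate 2 was lowest. Slc15a3, a proton-coupled carrier of histidine and small peptides in endolysosomal membranes, was the highest member of all (chromosome 19, 10839727 to 10859362 on mm10, plus strand). It stood at 949, 918 and 974 TPM, a ratio of highest to lowest library of 1.06, and its libraries did not overlap those of any other member. Its leading transcript was the protein-coding Slc15a3-201, at 904, 909 and 923 TPM. In the second quantification its protein-coding transcripts summed to 613, 946 and 823 TPM, so the small spread belongs to the first. Over its exons, 1541 bases (28.1%) also lie in exons of Tmem132a on the opposite strand, which averaged 208 TPM, and whether reads were counted by strand is not given in the sources used here.

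Slc3a2 encodes the heavy chain of CD98, which brings several amino acid exchangers of family Slc7 to the cell surface. It reached 429, 206 and 373 TPM, lowest in replicate 2. Of its partner light chains among the members, Slc7a8 (exchanger of large neutral amino acids) was highest, at 115, 152 and 103 TPM. The following 3 light chains were singled out after their values were seen, for their known pairing. Slc7a7, the exporter of cationic amino acids, stood at 37.7, 54.4 and 65.2 TPM. Slc7a5, the leucine exchanger, stood at 7.37, 2.93 and 4.89 TPM, and Slc7a6, the lowest member of the class, at 2.15, 1.74 and 3.63 TPM. Thus Slc7a8 and Slc7a7 were above Slc7a5 and Slc7a6 in every library.

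Slc6a6, which takes up taurine, stood at 237, 347 and 243 TPM and was highest in replicate 2. Slc43a2, a carrier of large neutral amino acids, stood at 101, 53.7 and 124 TPM. The glutamine and neutral amino acid carriers of family Slc38 had 6 members of 11 genes, none above 30 TPM on average. Among them, Slc38a1 was steady at 21.5, 19.0 and 21.8 TPM, while Slc38a2 stood at 14.5, 3.80 and 10.6 TPM.

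**Figure D2:**
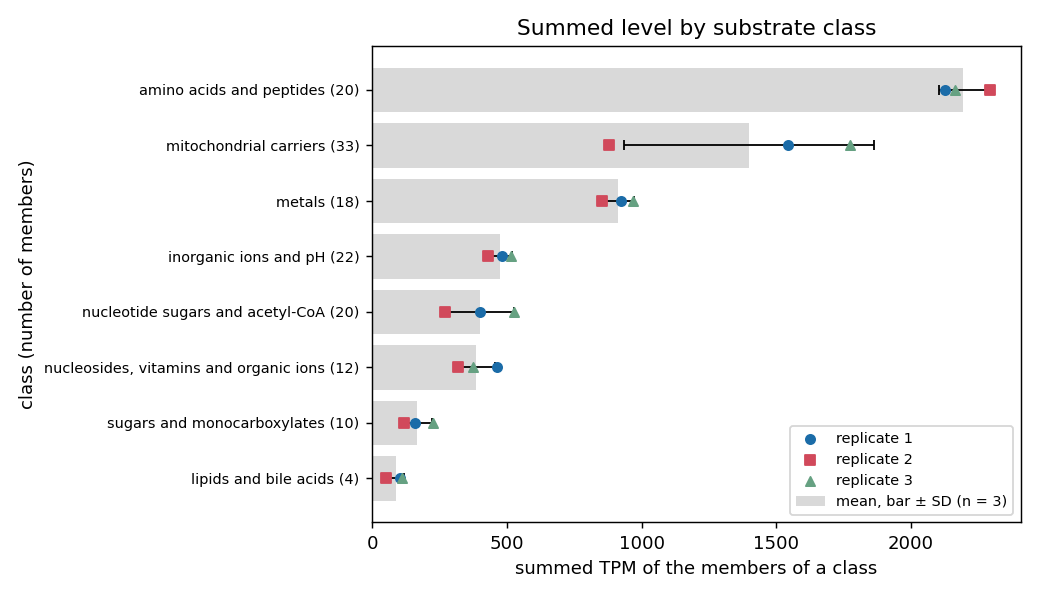
Summed TPM of the members of each substrate class in each library, with the mean (grey bar) and SD (line, n = 3) over libraries. The 2 classes with 1 member each are left out; mitochondrial carriers show the widest spread, with replicate 2 at 881 TPM.

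A chosen list of 10 members that act on endosomes and lysosomes was followed as a group. The list is partial: Slc31a2 and Slc9a9, described below as endolysosomal or endosomal, are not in it. The summed level of the 10 was 1211, 1589 and 1300 TPM in replicates 1, 2 and 3. Besides Slc15a3 and Slc15a4 the group holds Slc48a1, which moves heme out of phagolysosomes, at 96.0, 70.9 and 103 TPM, and Slc29a3, a nucleoside carrier of lysosomes, at 55.4, 136 and 71.6 TPM. Slc38a7, an exporter of glutamine and asparagine from lysosomes, stood at 28.8, 18.4 and 29.99 TPM. Slc38a9, the arginine sensor that links the lysosome's content to the kinase complex mTORC1, stood at 10.6, 8.97 and 12.0 TPM. The others were Slc36a1 (proton-coupled export of small amino acids, mean 13.4 TPM), Slc17a5 (sialic acid export, mean 11.8 TPM), Slc46a3 (mean 8.70 TPM) and Slc36a4 (mean 8.27 TPM). Replicate 2 was lowest in 6 of the 10 and highest in 3. Without Slc15a4 the summed level was 1178, 1189 and 1243 TPM, and replicate 2 was no longer the highest.

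Slc15a4 is the second peptide and histidine carrier of endolysosomes, and is known for its place in signalling from endosomal Toll-like receptors. Its gene level was 33.2, 401 and 57.3 TPM, so replicate 2 was 12.1 times replicate 1. Its mean was 164 TPM, the seventh highest, and 45.2 TPM without replicate 2. Counted as reads it went the other way, with 56.4, 27.4 and 64.1 CPM (expected counts scaled by the library's total, with no length). A single annotated transcript held the excess. Slc15a4-211, a processed transcript of 166 bases with no protein-coding annotation, was given 0 TPM in replicate 1, 373 in replicate 2 and 20.5 in replicate 3. In replicate 2 this was 93.0% of the gene's TPM from 108 expected counts, since the effective length used there was 7.01 bases. The protein-coding Slc15a4-201, of 2732 bases, stood at 23.7, 10.5 and 25.5 TPM from 997, 1096 and 1960 expected counts. Over all protein-coding transcripts of the gene the level was 23.7, 25.04 and 26.1 TPM. In the second quantification the gene stood at 25.4, 109 and 39.0 TPM, again highest in replicate 2.

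The transcript is shown because the gene level of Slc15a4 turns on it. It has 3 exons on chromosome 5, minus strand, at 127604538 to 127604607, 127604111 to 127604188 and 127603781 to 127603798 (mm10, GENCODE M21). Its first 148 bases, in lower case, lie unbroken in Slc15a4-201. Its last 18, in capitals, come 63 bases further on in Slc15a4-201, so only the join between the parts tells the transcripts apart.
Slc15a4-211: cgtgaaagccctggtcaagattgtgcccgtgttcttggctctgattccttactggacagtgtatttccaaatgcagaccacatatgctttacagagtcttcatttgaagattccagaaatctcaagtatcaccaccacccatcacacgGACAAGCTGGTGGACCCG

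**Figure D3:**
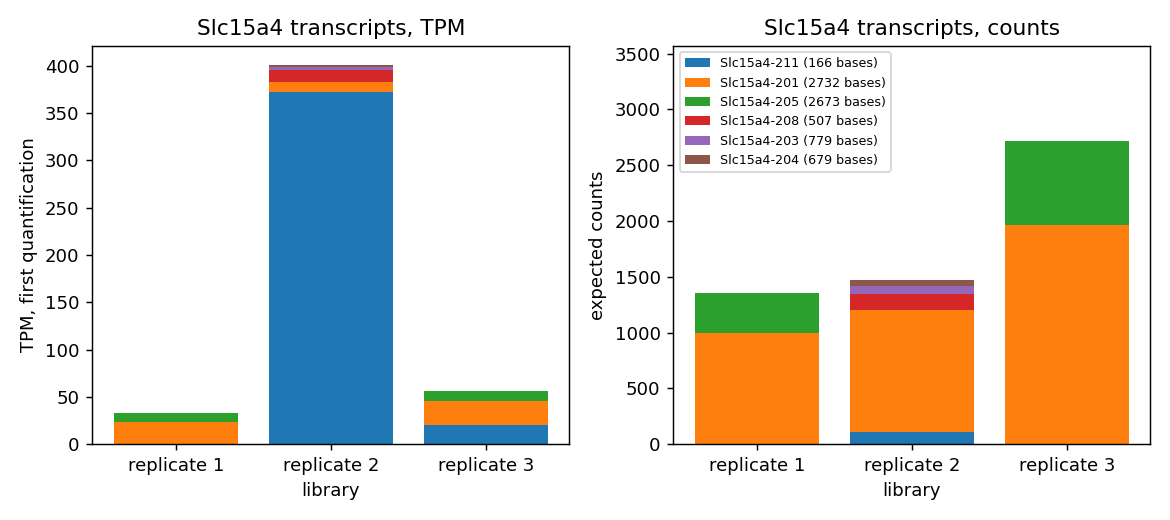
The 6 Slc15a4 transcripts with the highest mean TPM, stacked for each library, in TPM (left) and in expected counts (right). Slc15a4-211 fills most of the TPM bar of replicate 2 but a thin part of its count bar, where 108 counts stand beside 1096 of Slc15a4-201.

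The same measure was taken for all members, by dividing CPM by TPM in each library. The ratio of the highest to the lowest library in this length factor had a median of 1.15, was over 1.5 in 14 members and over 2 in 7. The following genes were singled out after these values were seen. Slc8b1, the sodium-calcium exchanger of mitochondria, had 53.3, 88.1 and 48.0 TPM but 94.4, 44.9 and 89.7 CPM. Its 378-base transcript Slc8b1-206 was at 62.7 TPM in replicate 2 and 0 in the others. Slc9a8, a sodium-proton exchanger of the Golgi, had 14.4, 29.3 and 14.1 TPM but 36.7, 23.0 and 37.1 CPM, with 21.6 TPM of replicate 2 in the processed transcript Slc9a8-213. Slc35e2 had 2.93, 12.4 and 3.17 TPM but 12.2, 15.8 and 13.7 CPM, with 9.71 TPM of replicate 2 in Slc35e2-204. Each of these 3 genes was highest in replicate 2 by TPM, with a transcript that is listed at 0 in the other libraries. Transcripts with an effective length under 250 bases held 2.22%, 9.42% and 3.29% of the members' TPM in replicates 1, 2 and 3.

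**Figure D4:**
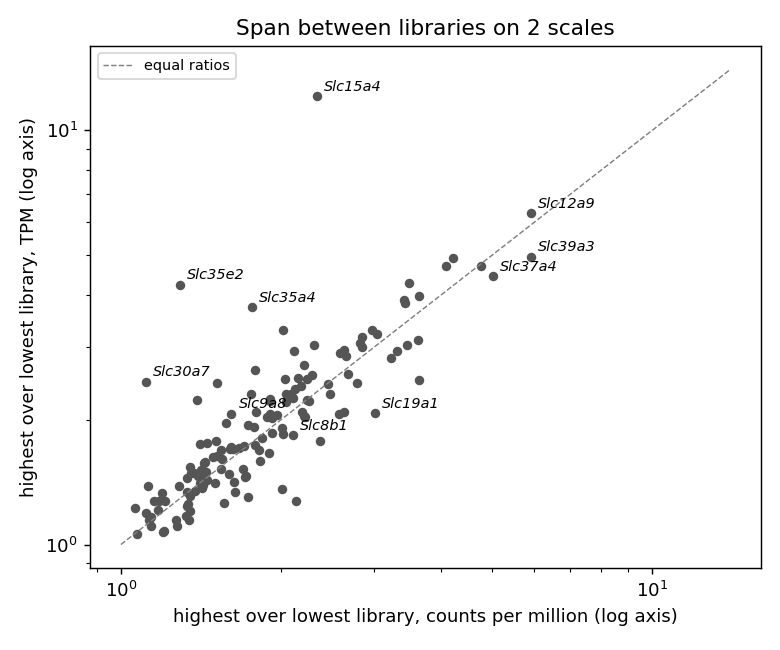
Ratio of the highest to the lowest library for each of the 141 members, in CPM (horizontal, log axis) and in TPM (vertical, log axis), with a dashed line at equal ratios. Slc15a4, Slc35e2, Slc35a4 and Slc30a7 lie far above the line; Slc12a9 and Slc39a3 are wide on both scales.

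Mitochondrial carriers were the largest class by number, with 33 members of 48 annotated genes. Their summed level was 1543 TPM in replicate 1, 881 in replicate 2 and 1774 in replicate 3 (mean 1399 ± 464, SD, n = 3), so replicate 2 was lowest. Without replicate 2 the mean was 1658.5 TPM. The 4 highest were Slc25a5, Slc25a3, Slc25a22 and Slc25a10. Slc25a5, the broadly expressed ADP/ATP carrier, stood at 404, 183 and 531 TPM, and its relative Slc25a4, the form known from heart and muscle, at 70.5, 51.6 and 81.6 TPM. Slc25a5 was above Slc25a4 in each library; they are close in sequence, and the division of reads they share is a model estimate. Slc25a3, the phosphate carrier, stood at 221, 114 and 275 TPM. Slc25a22, a glutamate carrier, stood at 150, 47.4 and 122 TPM, and Slc25a10, which exchanges malate and succinate for phosphate, at 83.8, 48.4 and 100.1 TPM. All 4 were lowest in replicate 2.

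In this class 9 carriers averaged 50 TPM or more, among them Slc25a1 (citrate, 68.2 ± 10.5 TPM), Slc25a11 (2-oxoglutarate and malate, 63.8 ± 24.7 TPM) and Slc25a39 (glutathione, 58.1 ± 24.4 TPM; SD, n = 3 for each). At the other end 11 averaged less than 10 TPM, and the lowest was Slc25a15, which carries ornithine, at 1.58, 1.11 and 2.51 TPM. Replicate 2 was lowest in 28 of the 33 members and its median ratio to the mean of replicates 1 and 3 was 0.570. Slc25a4 and the 3 carriers named with a mean and SD were picked for their known roles after their values were seen.

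Metal carriers had 18 members of 34 annotated genes, with 6 more left out of the list by rule. The summed level of the members was 923, 851 and 968 TPM (mean 914 ± 58.8, SD, n = 3; 946 without replicate 2). Slc31a2, a relative of the copper importer that sits in endolysosomal membranes, was the second highest member of all, at 450, 502 and 437 TPM. Slc31a1, the copper importer itself, stood at 83.2, 77.2 and 93.8 TPM. Zinc carriers of family Slc39, which bring zinc into the cytosol, had 8 members with a summed level of 209, 135 and 248 TPM. Those of family Slc30, which move zinc out of the cytosol, had 4 members with 68.9, 55.8 and 67.2 TPM. The highest Slc39 member was Slc39a7, which releases zinc from the endoplasmic reticulum, at 109, 29.9 and 128 TPM, lowest in replicate 2. The lowest was Slc39a8, a zinc and manganese importer, at 1.18, 3.04 and 1.83 TPM. Of the left-out metal genes, Slc11a1 stood at 404, 233 and 457 TPM and Slc40a1 at 14.2, 9.33 and 21.6 TPM.

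Carriers of inorganic ions and protons had 22 members of 66 genes, with a summed level of 482, 428 and 517 TPM (mean 476 ± 44.6, SD, n = 3; 499.6 without replicate 2). The 4 highest were the scaffold Slc9a3r1 (114, 74.2 and 109 TPM), Slc13a3, Slc8b1 and Slc12a4. Slc13a3, counted in this class although it takes up dicarboxylates with sodium, stood at 63.4, 57.2 and 97.5 TPM. Slc12a4, a potassium-chloride exporter, stood at 26.9, 12.9 and 25.3 TPM, and its relative Slc12a7, added after values were seen, averaged 19.8 ± 0.772 TPM (SD, n = 3). The chloride importer Slc12a2 was the lowest of the class, at 1.22, 1.01 and 1.72 TPM. Both exporters named were thus above the importer in every library. Of the kinases that act on them, Wnk1 stood at 145, 372 and 212 TPM, Oxsr1 at 11.9, 12.1 and 14.2 TPM and Stk39 at 1.70, 2.13 and 2.26 TPM.

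Family Slc35, known for nucleotide sugar carriers of the Golgi and endoplasmic reticulum, formed a class with the acetyl-CoA carrier Slc33a1. It had 20 members of 28 genes and a summed level of 398 ± 128 TPM (SD, n = 3), or 462 without replicate 2. Members were placed here by family, so a nucleotide sugar substrate is not implied for each. Of 19 members of family Slc35, 13 lay between 10 and 50 TPM and 4 under 10. The highest were Slc35a4 (48.7, 31.7 and 119 TPM), Slc35f6 (62.7, 32.5 and 79.3 TPM), Slc35b1 (50.03, 19.8 and 44.6 TPM) and Slc35b2 (37.6, 20.5 and 47.3 TPM). Slc35b2 supplies the Golgi with the sulfate donor PAPS. In Slc35a4, 67.5% of the TPM of replicate 3 lay in transcripts with an effective length under 250 bases. The lowest member was Slc35g1, at 1.05, 1.00 and 1.81 TPM.

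Carriers of nucleosides, vitamins and organic ions had 12 members of 51 genes and a summed level of 384 ± 72.9 TPM (SD, n = 3), or 418 without replicate 2. Slc28a2, a sodium-coupled purine nucleoside importer, stood at 203, 43.3 and 98.6 TPM, lowest in replicate 2 and highest in replicate 1. Slc29a3, described above, went the other way, with replicate 2 highest. Slc23a2, which takes up vitamin C, stood at 45.1, 24.5 and 50.5 TPM, and the choline carrier Slc44a1 at 26.2, 34.2 and 37.0 TPM. The lowest was the folate carrier Slc19a1, at 1.11, 1.80 and 2.30 TPM.

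Sugar and monocarboxylate carriers had 10 members of 43 genes, with 5 more left out by rule, and a summed level of 167 ± 55.7 TPM (SD, n = 3), or 193 without replicate 2. The 4 highest were Slc37a2 (a sugar-phosphate exchanger, 37.2, 20.95 and 63.6 TPM), Slc16a6 (38.9, 26.4 and 51.9 TPM, with 21.5% of its exonic bases shared with Amz2 on the opposite strand), Slc50a1 (26.3, 19.3 and 31.4 TPM) and Slc16a7 (a monocarboxylate carrier, 16.8, 19.7 and 25.2 TPM). The lowest was Slc37a1, at 3.89, 1.92 and 2.71 TPM. Among the left-out genes, the hexose carrier Slc2a6 stood at 459, 51.8 and 336 TPM and Slc2a1 at 14.5, 4.65 and 7.80 TPM. Bsg, the chaperone that brings monocarboxylate carriers to the surface, stood at 208, 169 and 238 TPM, and the alternative chaperone Emb at 26.1, 16.5 and 28.6 TPM. The mitochondrial pyruvate carrier, which bears no Slc name, had Mpc1 at 172, 160 and 184 TPM and Mpc2 at 49.4, 16.6 and 48.7 TPM.

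The class called lipid carriers here was set by family, for those named for fatty acids or bile acids. A lipid substrate is therefore not implied for each member. Its 4 members of 15 genes had a summed level of 86.9 ± 32.4 TPM (SD, n = 3), or 106 without replicate 2. Slc27a1, named for fatty acid uptake, led them at 64.2, 21.2 and 68.4 TPM, followed by Slc10a3 (15.3 ± 1.35 TPM), Slc10a7 (14.3 ± 2.30 TPM) and Slc27a4 (5.96 ± 2.78 TPM; SD, n = 3 for each). Slc27a1 was led in both quantifications by Slc27a1-202, annotated as retaining an intron. Its protein-coding transcripts summed to 0.23, 0.00 and 0.74 TPM in the first quantification and to 6.47, 5.21 and 4.599 TPM in the second. Slc6a8, which takes up creatine, stood alone in its class at 54.8, 33.5 and 68.3 TPM.

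The threshold placed close neighbours on either side. Just inside it, by their lowest library, were Slc35g1 (1.00 TPM), Slc12a2 (1.01 TPM), Slc25a33 (1.02 TPM), Slc25a15 (1.11 TPM), Slc19a1 (1.11 TPM) and Slc39a8 (1.18 TPM). Just outside were Slc16a9 (0.95 TPM), Slc18a1 (0.93 TPM), Slc26a6 (0.89 TPM), Slc22a15 (0.86 TPM), Slc25a53 (0.82 TPM) and Slc22a21 (0.77 TPM). Slc26a6, Slc25a53 and Slc22a21 were under 1 TPM in replicate 2 alone, and Slc26a6 stood at 5.52 and 5.50 TPM in the others. Of the 229 genes under the level, 26 reached 1 TPM in some library: 20 did so in replicate 1, 3 in replicate 2 and 18 in replicate 3. All libraries had 0 counts for 112 of the 229, which allows up to 3 counts in each library, for counting error only. Every member had at least 39 expected counts in every library, and the median over members and libraries was 1170.

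The partner genes were read the same way. Of 32 partners, 31 reached 1 TPM in every library, and replicate 2 was lowest in 18. The exception was the Rag GTPase Rragb, at 0.28, 0.09 and 0.16 TPM, while Rragc stood at 132, 169 and 145 TPM. Of the Ragulator complex, which anchors the Rag GTPases to the lysosome, Lamtor1 was highest at 214, 235 and 262 TPM, and replicate 2 was lowest for 4 of its 5 genes. Mtor itself stood at 11.3, 10.4 and 10.2 TPM. Of the receptors served by endolysosomal carriers, Tlr7 stood at 152, 247 and 135 TPM, Tlr9 at 111, 171 and 116 TPM, and their chaperone Unc93b1 at 616, 760 and 667 TPM, each highest in replicate 2. Irf5, listed with the signalling branch of Slc15a4, went the other way, at 261, 131 and 227 TPM, lowest in replicate 2. The peptidoglycan sensors Nod1 and Nod2 averaged 56.7 ± 15.5 and 11.8 ± 3.77 TPM (SD, n = 3).

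By TPM of the first quantification, replicate 2 was the lowest library for 104 of the 141 members (73.8%) and the highest for 26 (18.4%). Over all 9426 detected nuclear protein-coding genes it was lowest for 57.7% and highest for 27.9%. The median ratio of replicate 2 to the mean of replicates 1 and 3 was 0.669 over members and 0.797 over all those genes. Between replicates 1 and 3, 98 members were higher in replicate 3, with a median ratio of 1.12. The order of libraries was not counted in the second quantification, and examples named after values were seen differ. Over protein-coding transcripts, replicate 1 was lowest there for Slc13a3 (41.9, 63.3 and 84.5 TPM) and replicate 2 for Slc12a4 (14.3, 7.30 and 18.2 TPM). The shares above, and the orders of libraries given by TPM for single genes, therefore belong to the first quantification unless the second is named. Rescaling to nuclear protein-coding genes multiplies replicates 1, 2 and 3 by 1.11, 1.35 and 1.12, which raises replicate 2 most. In CPM, the log2 ratio of replicate 2 to the others had a median of -0.59 over members and -0.26 over detected genes.

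This ratio moved with the GC content of the leading transcript. Across the 141 members Pearson's r was -0.49 and Spearman's rho -0.50. Across 9419 detected genes they were -0.48 and -0.49. These are descriptions across genes, which share the same libraries and depth and are not independent replicates. The 71 members at or under the median GC content had a median log2 ratio of -0.30, and the 70 above it -0.79. The part of GC content and of mitochondrial RNA in the lower level of the members in replicate 2 was not tested.

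**Figure D5:**
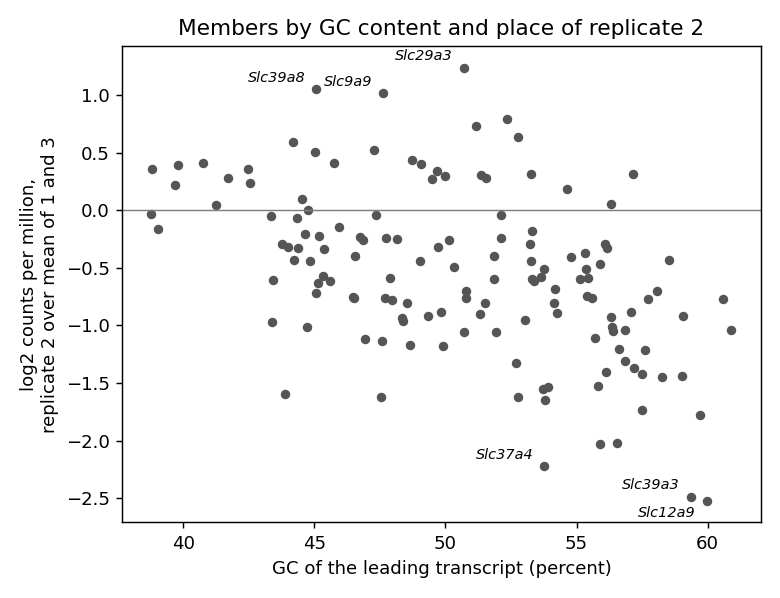
log2 ratio of replicate 2 to the mean of replicates 1 and 3 in CPM (vertical) against GC content of the leading transcript in percent (horizontal), 1 point for each of the 141 members. Points fall toward the right, from a median of -0.30 in the lower GC group to -0.79 in the upper; Slc12a9 is lowest and Slc29a3 highest.

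Whether members differed between libraries by more than counting error was tested by chi-square on scaled library sizes. Of 141 members, 136 were called at an adjusted p under 0.05 (Benjamini-Hochberg over all 11932 genes tested), or 96.5%, against 87.9% of all genes tested. Nothing is read from the difference between these shares, since the rule used the same values and the test gains power with depth of counts. Among the 5 members not called were Slc10a7, Slc20a2, Slc30a9 and Slc35e3, named after their values were seen. Without replicate 2, 90 members (63.8%) were called, and the share of all genes fell alike, to 55.0%. Among the partners tested, 30 of 31 were called, and Mtor was not.

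A further test asked whether a member varied more than genes of like abundance, with the quasi-likelihood fit of edgeR. None of 141 members was called at an adjusted p under 0.05, and 0% of all 11932 genes were. At an unadjusted p under 0.05 by edgeR there were 3 members of 141: Slc12a9, Slc39a3 and Slc9a9. The share of all genes at this cut was not counted, so nothing is read from that number. Slc12a9, of the cation-chloride cotransporter family, stood at 31.0, 4.91 and 28.3 TPM (adjusted p = 0.933 by edgeR). Slc39a3, a zinc importer, stood at 8.81, 2.07 and 10.3 TPM, and Slc9a9, a sodium-proton exchanger of endosomes, at 6.59, 19.4 and 14.3 TPM. With DESeq2's size factors in place of edgeR's, the fit again called 0 members. Replicate 2 was lowest for Slc12a9 and Slc39a3 and highest for Slc9a9. The residual quasi-dispersion (the spread left after the edgeR fit) of Slc12a9, Slc39a3 and Slc9a9 was 11.45, 8.37 and 7.01 times the value fitted for genes of like abundance. With 3 libraries the lack of a call does not show that their spread was within the norm.

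Each library came with a second quantification, which shows how far a level rests on the quantification used. It assigned 32127995, 57277114 and 47185726 counts in replicates 1, 2 and 3, against 24596382, 54016971 and 43127749 in the first. Differences therefore reflect which reads were assigned as well as how they were shared between transcripts. With limma on log2(TPM + 1), and calling an adjusted p under 0.05 with a mean difference of at least 1, 0 of 141 members were called in either direction. Over the 10203 protein-coding genes tested, 0.392% were higher in the first and 1.26% higher in the second. The median difference was 0.14 over members and 0.14 over all genes tested. At any size of difference, 3 members had an adjusted p under 0.05 by limma and stayed under the size threshold: Slc30a9 (-0.95, SE 0.18, adjusted p = 9e-06), Slc15a4 (0.93, SE 0.18, adjusted p = 1.5e-05) and Slc38a6 (-0.74, SE 0.18, adjusted p = 0.00173). A negative value means that the second quantification was higher. The share of all genes under that adjusted p at any size was not counted, so nothing is read from the number of members. The fit used 1 variance pooled over genes, so the SE was 0.18 for every member. It does not show a gene's own spread between libraries, and neither do these p-values. Without replicate 1, 2 members were called, Slc15a4 (1.21) and Slc30a9 (-1.04). Without replicate 3, Slc15a4 was called (1.13), and without replicate 2 none was, the range of adjusted p for Slc15a4 in the calls being 6.56e-12 to 0.00513 by limma. Each of these calls rests on 2 libraries.

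The transcript with the highest mean TPM was the same in both quantifications for 125 of 141 members, and for 88 of the 96 at 10 TPM or more. One transcript led in all 3 libraries for 109 members. The 8 members at 10 TPM or more whose leader differed were Slc35a4, Slc38a10, Slc38a6, Slc38a1, Slc9a8, Slc30a9, Slc35d2 and Slc30a6. In Slc38a10 the first quantification gave the 4554-base Slc38a10-201 23.3, 13.7 and 26.2 TPM and Slc38a10-216 2.78, 0.48 and 0.93, while the second gave them 1.58, 1.01 and 4.10 TPM and 17.1, 14.7 and 20.99 TPM. In Slc38a6, replicate 2 held 10.01 TPM of Slc38a6-202 in the first quantification and 33.2 in the second.

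Members were led by a transcript not annotated as protein-coding in 10 cases in the first quantification and 13 in the second. Besides Slc15a4 and Slc27a1, they include Slc25a22, whose leader Slc25a22-204 is annotated for nonsense-mediated decay at 41.8, 16.6 and 42.7 TPM. Of its protein-coding transcripts, Slc25a22-203 was at 48.7, 0.00 and 37.4 TPM. Counted over protein-coding transcripts alone, 136 of the 141 members reached 1 TPM in all 3 libraries. Exons of 46 members overlap exons of another gene, and for 18 of them that gene reached 1 TPM or more, in 17 on the opposite strand. Slc24a5, named after its values were seen, shares 39.5% of its exonic bases with Myef2 on the opposite strand.

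Promoters were searched in RefSeq sequence on GRCm38.p6, in the 250 bases before each annotated start, on both strands. Of the 141 members, 108 matched an entry, with 148 starts in all. A gene was counted if any of its starts matched, and starts per gene were not compared between members and other genes. CACGTG, the core of the element through which lysosomal genes are known to be bound, was present for 21 of 108 (19.4%), against 6.86% of all 27025 genes and 10.4% of 7598 detected genes. TGACNNNGC, the antioxidant response element, was present for 22 (20.4%), against 11.5% and 14.2%. The interferon-stimulated element (GAAA, any 2 bases, GAAA), the amino acid response element TGATGNAA and the cyclic AMP response element TGACGTCA were each present for 3 (2.78%), against 3.46%, 3.91% and 1.77% of all genes and 3.79%, 2.54% and 3.24% of detected genes. The motifs could overlap each other, and a match is a description of letters, not of binding.

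Of the endolysosomal members in the list above, 8 had an entry and 2 held CACGTG, Slc36a1 and Slc38a7. Their stretches are shown because both lie close to the start, with the motif beginning 31 bases before it in Slc36a1 and 34 in Slc38a7. CACGTG is in capitals and each stretch ends at the last base before the start. They are chr11:55204269-55204339 (plus strand) and chr8:95853492-95853565 (minus strand).
Slc36a1: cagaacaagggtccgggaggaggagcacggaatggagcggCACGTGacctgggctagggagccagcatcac
Slc38a7: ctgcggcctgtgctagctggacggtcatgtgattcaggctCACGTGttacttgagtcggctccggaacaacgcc
Slc36a1 stood at 11.8, 9.42 and 19.2 TPM and Slc38a7, as above, at 28.8, 18.4 and 29.99 TPM. Both were lowest in replicate 2.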

How the data were processed

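Gene and transcript tables of 3 libraries were used, on mm10 with GENCODE M21, as the notes beside the tables state. The deposited tables of the first quantification give expected counts (reads shared by a model, so not always whole), TPM, effective lengths and the percent of a gene's TPM in each transcript, per the file headers. Those of the second give estimated counts and TPM per transcript, deposited by the authors and summed here to genes. Strandedness, aligner: not given in the sources used here. Library totals were 24596382, 54016971 and 43127749 expected counts. Entries naming no gene (0.0875%, 0.0464% and 0.0636% of the libraries' expected counts) entered no test.

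Members and lists (substrate classes, partners, motifs, cell type markers) were chosen with earlier results of these data known. The text names the 12 highest members, the 4 highest and the lowest of each class, 6 genes on each side of the threshold, members whose leading transcript differed at 10 TPM or more, and the partners. Genes outside this rule are said to be chosen after their values were seen, or are named for a known role. Expected counts were rounded for tests in R 4.3.3: chi-square on TMM-scaled sizes, edgeR 4.0.16 quasi-likelihood after filterByExpr, DESeq2 1.42.0 size factors as an alternative, and limma 3.58.1 on log2(TPM + 1) differences. The scripts were tested on simulated data. CPM are expected counts scaled to the library's total. Alternatives left out each library, changed the level, filter, scaling or pseudocount, or used the second quantification. Sums over protein-coding transcripts were added after seeing the data. Values of some members are not reported here.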

Additional observations from a re-analysis of the deposited data

How the results depend on the processing

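The number of members was 155 at 0.5 TPM, 126 at 2 TPM, 140 in the second quantification (138 shared), 136 over protein-coding transcripts, and 141 to 152 when a library was left out. Class sums moved by more than 1 SD in these cases. In the second quantification amino acid carriers came to 1888 TPM, ion carriers to 428 and metal carriers to 830. Rescaled to nuclear protein-coding genes, they came to 2626, 564 and 1086 TPM, and Slc17a5, alone in the vesicle class, to 14.1 TPM. Over protein-coding transcripts, an alternative chosen after seeing the data, amino acid carriers came to 1983 TPM, lipid carriers to 34.9 TPM and Slc17a5 to 10.4 TPM; for lipid carriers most of the difference was Slc27a1. Single members moved by more than 1 SD in 17 cases in the second quantification, 36 after rescaling and 28 over protein-coding transcripts. With 3 libraries, leaving one out cannot move a mean by 1 SD, so that measure says nothing of a library's weight. By ratio, 2 members moved by over 1.5 times without replicate 2: Slc15a4 from 164 to 45.2 TPM and Slc35e2 from 6.17 to 3.05 TPM. Leaving out a library gave 90 to 135 members beyond counting error: 95.7% of members and 79.4% of all genes tested without replicate 1, 63.8% and 55.0% without replicate 2, and 78.0% and 76.4% without replicate 3. It gave 0 to 2 members that differed between quantifications, where 1.73% to 1.96% of all genes did. Excess variance was called for 0 members in all 7 alternatives run with edgeR, which called at most 0.314% of all genes. The libraries form 1 group. No paired analysis was possible because there is no other group to pair with. The lowest expected count of a member, 39, limits the genes nearest to the threshold; whether the first or second quantification is nearer to the RNA was not tested.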
